A study of Drosophila melanogaster with 36 samples.

Results

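Insulin signalling in Drosophila passes from secreted insulin-like peptides through the insulin receptor InR to a phosphoinositide 3-kinase, whose lipid product brings the kinases Pdk1 and Akt to the membrane. Active Akt phosphorylates the transcription factor foxo and keeps it out of the nucleus, and foxo that enters the nucleus switches on genes of translation control, fat breakdown and secreted signals, and also InR itself. In adult flies the pathway is known for linking nutrition with growth, egg production and lifespan. Described here are the transcripts of 9 genes that run from the receptor to foxo: InR, its adaptors chico (the insulin receptor substrate) and Lnk, the catalytic subunit Pi3K92E and the regulatory subunit Pi3K21B of the phosphoinositide 3-kinase, the kinases Pdk1 and Akt, the Akt inhibitor trbl (tribbles) and foxo. They were chosen by symbol, for their place in the pathway, out of 12842 genes listed for heads, 12394 for fat body and 11311 for ovaries. All 9 were found in each tissue, and all 9 passed the filter of at least 10 normalised counts in at least 3 of the 12 libraries, which left 11197, 10850 and 9438 genes for testing.

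Female D. melanogaster had been reared as larvae on 100% SYA (sugar-yeast-agar; M females) or on 120% SYA (H females), and all shared a common diet as adults. Frozen females were dissected into heads, ovaries and fat body, the last being the abdomen without gut and ovaries, at RNA-1 (after 10% of the cohort of that treatment had died) and RNA-2 (after 60% had died). The time points follow deaths within each treatment, so M and H females at the same time point need not have been of the same age in days, and aging and the survival of some females to RNA-2 cannot be told apart. No mutant allele, transgene or drug is named for any group. Each group of tissue, larval diet and time point held 3 libraries, 36 in all, each from a pool of 11 or 12 females, and the labels call them biological replicates. Where separate pools were drawn from the same cohort, the p-values measure the spread between pools.

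The values are normalised counts, which the authors made from estimated counts per gene. Their totals per library ran from 56411248 to 70637997 in heads, from 54372784 to 75354692 in fat body and from 61929809 to 69203516 in ovaries, but these totals follow the normalisation and are not the number of reads, so the depth behind each value is unknown and no counting interval is given. Comparisons used limma on log2(value + 1) in each tissue. Genes with a p below 0.05 after Benjamini-Hochberg adjustment over all those tested were called, and a log2 difference is on that scale throughout. Markers of the labelled tissues were present in their own tissue in every library. The makeup of the samples moved between time points too, and in bulk samples fewer cells of a type and less RNA per cell cannot be told apart. The summed level of 7 fat body markers in heads was 9093840 to 11753900 normalised counts in M females at RNA-1 against 2075250 to 2402200 later at RNA-2, and in H females 6902930 to 9744370 and 2779010 to 3634940. The summed level of 10 follicle cell and eggshell markers in ovaries was 567596 to 1089010 in M females and 1439260 to 1953720 in H females at RNA-1, and 19499 to 170477 over both diets at RNA-2. Except for a germline covariate in fat body, the part of such shifts in the results below was not tested.

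All 9 genes lie on chromosome arms 2L, 3L and 3R in the BDGP6 build. InR (FBgn0283499) lies on the minus strand of 3R at 21570248 to 21619321, and its annotated transcripts have a median length of 10379.5 bases, longer than those of 99.2% of the genes tested in heads. The adaptors chico (FBgn0024248, 2L, 10242512 to 10247078, minus strand) and Lnk (FBgn0028717, 3R, 25888542 to 25893270, plus strand) have 3 and 6 transcripts. The kinase subunits Pi3K92E (FBgn0015279) and Pi3K21B (FBgn0020622) lie on 3R at 20628972 to 20634732, minus strand, and on 2L at 297880 to 305233, plus strand. Pdk1 (FBgn0020386, 3L, 129450 to 145895, plus strand) has 9 transcripts, and Akt (FBgn0010379, 3R, 16099228 to 16105670, plus strand) has 5. The inhibitor trbl (FBgn0028978, 3L, 20396288 to 20401609, minus strand) has 1 transcript of 2372 bases, and foxo (FBgn0038197, 3R, 14056945 to 14087978, plus strand) has 5. The exons of chico share 380 bases, 10.6% of their length, with the antisense transcript asRNA:CR44995. The libraries were made with a stranded kit, but no source used here says whether the counting used strand, so chico may carry reads of its antisense partner.

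Per transcript length, the kinases Pdk1 and Akt were the most abundant of the 9 transcripts and InR the least abundant in each of the 3 tissues. In heads the median over 12 libraries, in normalised counts per kilobase of median transcript length with each library scaled to a total of 1000000, was 34.7 for Pdk1, 33.8 for Akt, 24.1 for foxo, 23.0 for chico, 20.0 for Lnk, 19.0 for Pi3K92E, 13.3 for trbl, 10.8 for Pi3K21B and 6.67 for InR. The library ranges of every pair of neighbours in that order overlapped. In fat body the order ran Pdk1 39.0, Akt 34.5, foxo 30.0, trbl 19.8, chico 16.9, Pi3K92E 14.7, Lnk 13.7, Pi3K21B 7.30 and InR 3.61, and among neighbours only Pi3K21B and InR were separate. In ovaries it ran Pdk1 57.7, Akt 56.8, Pi3K92E 37.9, Pi3K21B 35.0, Lnk 24.7, trbl 24.6, foxo 20.5, chico 11.1 and InR 7.39, with no overlap between Akt and Pi3K92E, trbl and foxo, foxo and chico, or chico and InR.

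**Figure D1:**
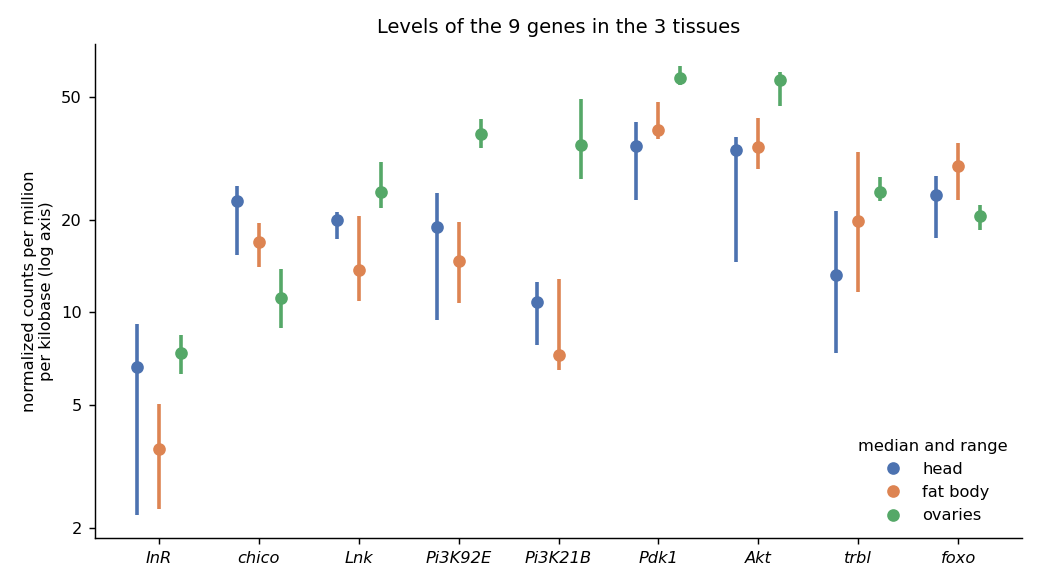
Level of each of the 9 genes, in normalised counts per kilobase of median transcript length with each library scaled to a total of 1000000 (log axis), in heads, fat body and ovaries. Points are medians and lines the range over the 12 libraries of a tissue; Pdk1 and Akt lie highest and InR lowest in each tissue, and the phosphoinositide 3-kinase subunits Pi3K92E and Pi3K21B are higher in ovaries than in heads and fat body.

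Between tissues, both subunits of the phosphoinositide 3-kinase stood out in ovaries. With each library scaled to a total of 1000000, Pi3K21B had a median of 122 normalised counts in ovaries against 37.7 in heads (3.24-fold) and 25.4 in fat body, and Pi3K92E 167 against 83.9 (2.00-fold) and 65.1. The ovary libraries were also above all libraries of the other tissues for Akt (207 against 126 in fat body, 1.65-fold), Pdk1 (214 against 145, 1.48-fold) and Lnk (77.0 against 62.5 in heads, 1.23-fold). The adaptor chico ran the other way, with 74.1 in heads, 54.6 in fat body and 35.9 in ovaries, and its fat body and ovary ranges were separate. For InR, trbl and foxo the ranges of neighbouring tissues overlapped, but those of the highest and lowest tissue were separate. InR was at least 65.6 in ovaries and at most 52.5 in fat body. For trbl the ovary minimum was 54.4 and the head maximum 50.6. For foxo the fat body minimum was 82.6 and the ovary maximum 79.6. The 3 tissues were normalised separately, so these levels across tissues are a description without a test.

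The comparison of RNA-2 with RNA-1 asks how transcript levels changed as each cohort died, and it was made within M females and within H females. In heads 6 of the 9 genes rose in M females (InR, Pi3K92E, Akt, trbl, Pi3K21B and chico) and none fell, against 32% of all genes tested that were called in either direction and 15.8% that rose. In H females 2 rose (trbl and Pi3K92E) and Pdk1 fell, against 19.5% of all genes (11% rose and 8.56% fell). In fat body 2 of 9 rose in M females (Pi3K92E and Akt; 13.6% of all genes were called and 8.52% rose) and 2 in H females (trbl and Pi3K92E; 15.3% and 6.55%). In ovaries chico and Lnk rose in M females (20.4% of all genes were called and 9.76% rose), and in H females Akt rose while InR and Pdk1 fell (47.8%, with 25% up and 22.8% down). In the ovaries of H females the share of members called was thus below that of all genes. The median log2 difference of the 9 genes was 0.26 in heads of M females (0.02 over all genes), 0.14 in heads of H females (-0.01), 0.33 in fat body of M females (-0.02), 0.10 in fat body of H females (0.05), 0.09 in ovaries of M females (0.00) and 0.00 in ovaries of H females (0.01). The M and H comparisons share no libraries, but all 12 libraries of a tissue share 1 estimate of the spread.

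**Figure D2:**
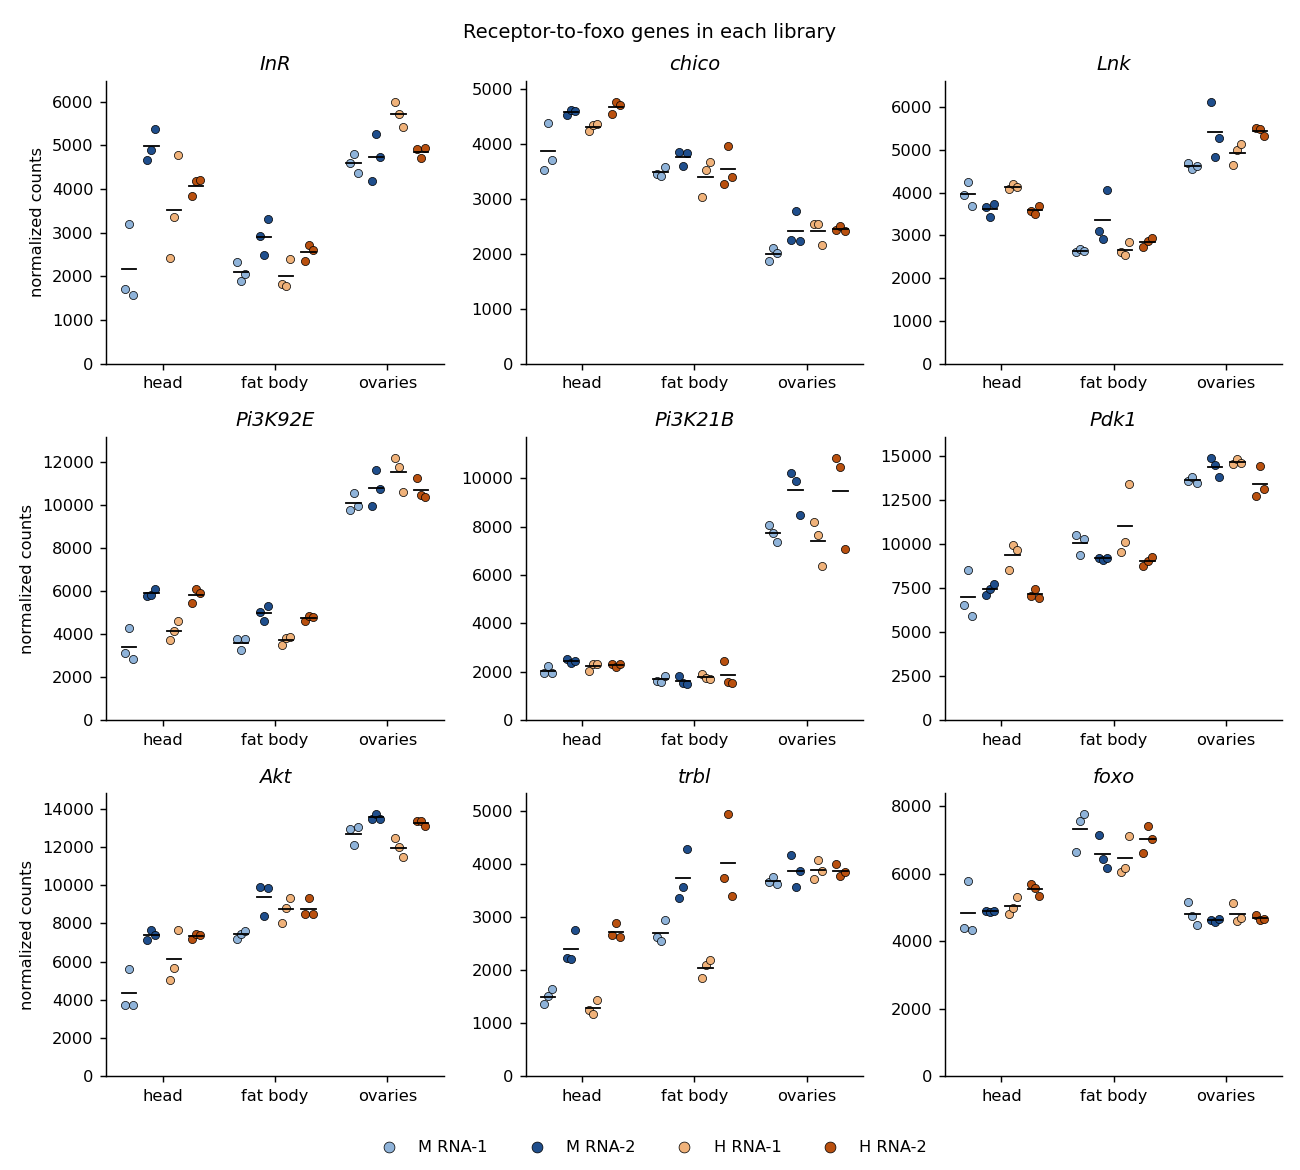
Normalised counts of each of the 9 genes in every library, by tissue, with 1 point per library, 3 libraries per group of diet and time point and a bar at the group mean (vertical axes start at 0). In heads of M females the RNA-2 points of InR, Pi3K92E, Akt and trbl lie above all RNA-1 points, and the RNA-1 points of InR spread from 1563 to 3203.

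The receptor transcript rose in the heads of M females. InR was at 1717, 3203 and 1563 normalised counts in the M libraries at RNA-1 and at 4671, 4899 and 5382 at RNA-2, so that the groups did not overlap. The fitted difference was 1.28 on the log2 scale (SE 0.27, 2.43-fold, adjusted p = 0.00591, limma). In heads of H females InR was at 2420, 3353 and 4775 at RNA-1 and at 3831, 4178 and 4218 at RNA-2. Those groups overlapped, the highest value being an RNA-1 library, and the difference of 0.27 did not pass the test (95% interval -0.32 to 0.85, adjusted p = 0.573). Whether the receptor differed between diets in its change is a separate test, the diet by time term, and its value of -1.01 (95% interval -1.84 to -0.18) had an adjusted p of 0.245.

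In fat body InR was at 2336, 1891 and 2048 in M females at RNA-1 and at 2914, 2496 and 3324 at RNA-2, with no overlap, and its difference of 0.47 had an adjusted p of 0.0529. H females gave 1830, 1784 and 2408 at RNA-1 and 2346, 2711 and 2610 at RNA-2, a difference of 0.36 (adjusted p = 0.120). Neither passed the threshold. Ovaries went another way. There InR fell in H females, from 5993, 5716 and 5412 to 4926, 4716 and 4928, by 0.23 on the log2 scale (SE 0.07, adjusted p = 0.0190). All RNA-2 libraries were below all RNA-1 libraries. With each library's trend on transcript length removed this difference turned to 0.15, and over the alternatives its adjusted p ran from 0.00461 to 0.257. In ovaries of M females it was at 4595, 4791 and 4372 at RNA-1 and at 4191, 5261 and 4722 at RNA-2 (log2 difference 0.04), and these groups overlapped.

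InR is the longest of the 9 transcripts, and transcript length moved with the libraries. The other members were also longer than most genes tested in heads, from 64.3% of them for trbl to 89.3% for Pi3K92E. The share of all genes called in heads is thus a background of mostly shorter transcripts. The correlation across genes between a library's level relative to the tissue mean and log2 transcript length was -0.39, 0.17 and -0.48 in the 3 M head libraries at RNA-1, 0.01 to 0.03 in M females at RNA-2, 0.02 to 0.21 in H females at RNA-1 and between 0.09 and 0.13 in those at RNA-2. After the group means were subtracted, the head level of InR followed this library value over the 12 libraries with r = 0.87, foxo with 0.97, Pdk1 with 0.95 and Pi3K92E with 0.92, while trbl had 0.01. When each library's trend on transcript length was removed, the rise in heads of M females was 0.56 for InR, 0.57 for Akt, 0.50 for Pi3K92E and 0.65 for trbl, all still called. Without the 2 M libraries of negative correlation, replicates 1 and 3, only the lone replicate 2 stood for M females at RNA-1 and was assumed to vary like the other groups. InR then had 0.64, Akt 0.40, Pi3K21B 0.13 and chico 0.062, and none of these was called, whereas Pi3K92E (0.47) and trbl (0.66) were. Over all alternatives the adjusted p of InR in that comparison ran from 0.000271 to 0.223, that of Akt from 0.000193 to 0.21, that of Pi3K92E from 2.8e-05 to 0.0314 and that of trbl from 0.00037 to 0.0207.

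**Figure D3:**
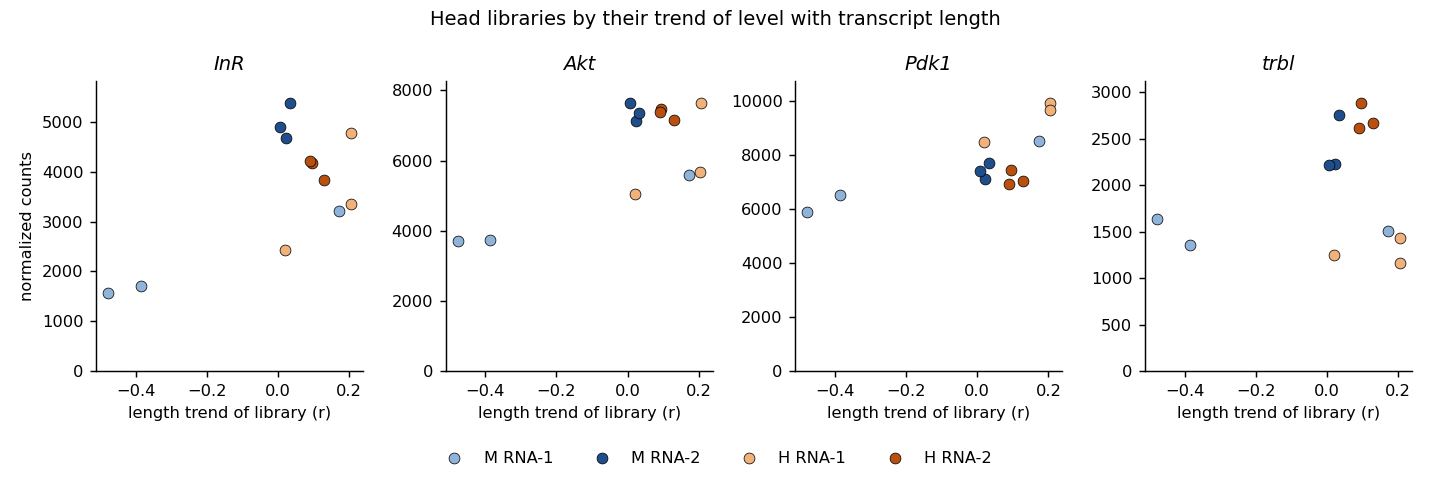
Normalised counts of InR, Akt, Pdk1 and trbl in the 12 head libraries (vertical axis) against the correlation r, across genes, of each library's relative level with log2 transcript length (horizontal axis), with 1 point per library coloured by diet and time point. The M libraries at -0.39 and -0.48 lie far to the left and hold the 2 lowest InR values, while trbl separates by time point along the vertical axis.

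Among the adaptors, changes were small. In heads of M females chico, which couples InR to the phosphoinositide 3-kinase, was at 3514, 4381 and 3700 normalised counts at RNA-1 and at 4512, 4617 and 4588 at RNA-2. It rose 1.19-fold (log2 difference 0.25, SE 0.08, adjusted p = 0.0383), and the call held in 3 of the 12 fits that left out 1 library. Without M replicates 1 and 3 at RNA-1 its difference was 0.062 and not called, and its adjusted p over the alternatives ran from 0.000431 to 0.61. In H females the RNA-1 libraries gave 4231, 4333 and 4349 and the RNA-2 libraries 4538, 4756 and 4708, which did not overlap, but the difference of 0.12 did not pass the test (adjusted p = 0.387). In ovaries of M females chico rose from 1863, 2099 and 2006 to 2243, 2774 and 2227, 1.21-fold (log2 difference 0.27, SE 0.09, adjusted p = 0.0464, held in 2 of 12 and 0.17 without RNA-2 replicate 2). Lnk, an adaptor that binds the receptor and chico, rose there 1.16-fold (0.22, SE 0.07, adjusted p = 0.0476, held in 2 of 12 and 0.13 without RNA-2 replicate 1), from 4702, 4545 and 4632 to 6122, 4835 and 5278. Both ovary calls lay just inside the threshold. In heads, the differences of Lnk were -0.13 in M females (adjusted p = 0.157), which turned to 0.13 when libraries were divided by their totals, and -0.21 in H females (adjusted p = 0.0631), which was then -0.032. All 3 RNA-2 libraries of H females, at 3511 to 3697, were below all 3 RNA-1 libraries, at 4093 to 4201.

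Pi3K92E, the catalytic subunit that makes the lipid signal, rose in heads and fat body in both diets, and no other of the 9 genes was called in all 4 of these comparisons. In heads of M females it was at 3117, 4273 and 2858 at RNA-1 and at 5781, 5841 and 6083 at RNA-2, a 1.75-fold rise (log2 difference 0.81, SE 0.13, adjusted p = 0.00168). In H females it went from 3735, 4119 and 4589 to 5426, 6109 and 5899, a 1.40-fold rise (0.49, SE 0.13, adjusted p = 0.0246). Every RNA-2 head library was above every RNA-1 head library. The rise in M heads was kept in all 24 alternatives, and that in H heads in 18 of 24.

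In fat body of M females Pi3K92E was at 3771, 3243 and 3769 at RNA-1 and at 5020, 4624 and 5287 at RNA-2 (1.39-fold, log2 difference 0.47, SE 0.08, adjusted p = 0.00491). H females gave 3497, 3804 and 3866 against 4600, 4857 and 4811 (1.28-fold, 0.35, SE 0.08, adjusted p = 0.0142). Here too the time points were separate within each diet. The diet by time differences were -0.32 in heads and -0.12 in fat body, neither called. In ovaries, where its level was highest, the differences were 0.09 in M females and -0.10 in H females, and neither passed the test.

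Pi3K21B, the regulatory subunit, rose only in heads of M females, by the tests run. Its values there were 1936, 2212 and 1931 at RNA-1 and 2502, 2345 and 2439 at RNA-2 (1.20-fold, log2 difference 0.26, SE 0.08, adjusted p = 0.0269), and the call held in 7 of the 12 fits that left out 1 library. With the length trend removed its difference was 0.07. In ovaries it was at 8063, 7741 and 7362 against 10203, 9896 and 8482 in M females and at 8176, 7651 and 6373 against 10831, 10463 and 7075 in H females. The differences of 0.30 (adjusted p = 0.188) and 0.34 (adjusted p = 0.0942) did not pass, and in H females the groups overlapped.

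**Figure D4:**
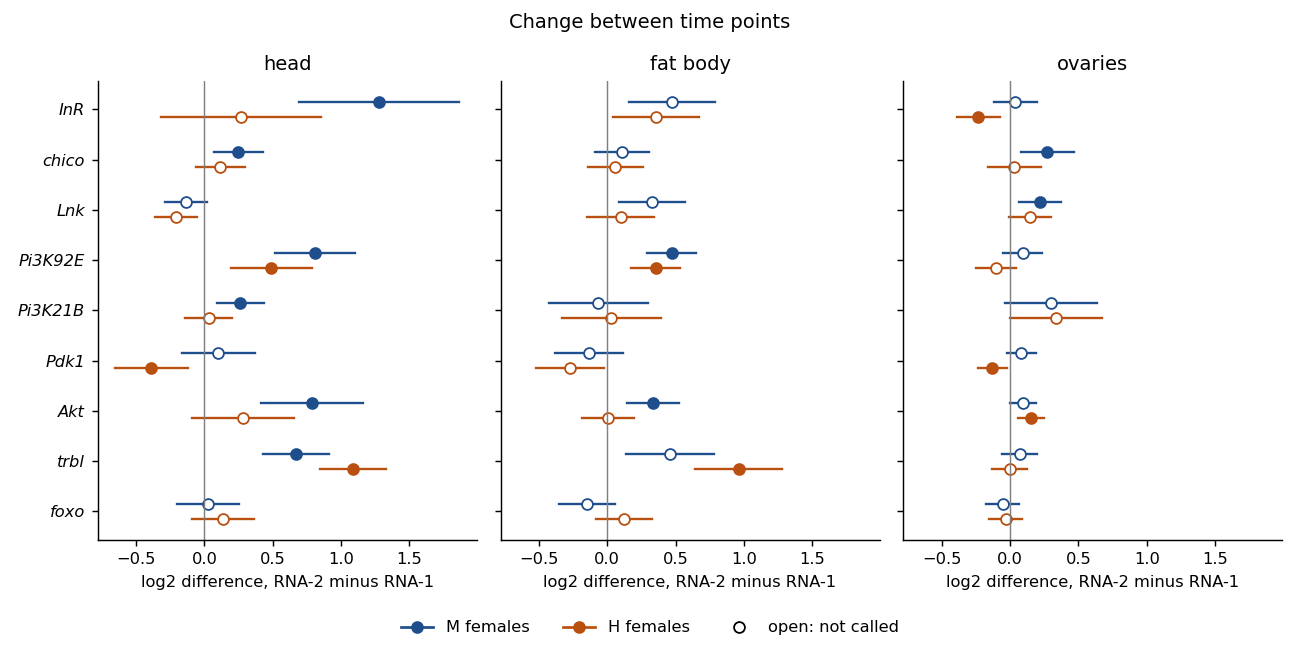
Fitted log2 difference between RNA-2 and RNA-1 for each of the 9 genes by tissue, in M and H females, with bars for the 95% interval of the limma fit and filled points for genes called at an adjusted p below 0.05. InR and trbl reach 1.28 and 1.09 in heads, the ovary values lie between -0.23 and 0.34, and foxo is not called in any panel.

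Pdk1 phosphorylates and activates Akt, and its transcript fell in heads and ovaries of H females by calls that depended on the scaling. In heads of H females it was at 8506, 9953 and 9660 at RNA-1 and at 7058, 7441 and 6942 at RNA-2, a log2 difference of -0.39 (SE 0.12, adjusted p = 0.0440), with no overlap. M females were at 6544, 8513 and 5893 at RNA-1 and at 7126, 7415 and 7705 at RNA-2 (0.10, adjusted p = 0.527). In ovaries of H females it went from 14570, 14845 and 14605 to 12713, 14417 and 13124 (log2 difference -0.13, SE 0.05, adjusted p = 0.0421), and there too every RNA-2 library was lower. The head call held in 3 and the ovary call in 5 of the 12 fits that left out 1 library, and in 11 of 24 and 8 of 23 alternatives in all. When libraries were divided by their totals neither passed, with -0.22 in heads (adjusted p = 0.294) and -0.0051 in ovaries (adjusted p = 0.941). Over the alternatives the adjusted p ran from 0.000398 to 0.294 in heads and from 0.00882 to 0.941 in ovaries. In fat body of H females 9560, 10102 and 13417 stood against 8761, 9024 and 9267, a difference of -0.27 that did not pass (adjusted p = 0.129).

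Akt, the kinase that phosphorylates foxo, rose in heads of M females with values of 3745, 5606 and 3702 at RNA-1 and 7128, 7656 and 7371 at RNA-2. The difference was 0.79 on the log2 scale (SE 0.17, 1.73-fold, adjusted p = 0.00684), the largest rise there after InR and Pi3K92E. In heads of H females 1 RNA-1 library reached the RNA-2 level, with 5061, 5671 and 7642 against 7166, 7461 and 7390, and the difference of 0.28 had an adjusted p of 0.302. In fat body Akt rose in M females from 7206, 7429 and 7627 to 9933, 8364 and 9875 (0.34, SE 0.09, 1.26-fold, adjusted p = 0.0301), a call that held in 7 of the 12 fits that left out 1 library. H females stayed between 8048 and 9356 at RNA-1 and between 8469 and 9336 at RNA-2, with a difference of 0.01 (adjusted p = 0.973). Division by library totals gave 0.33 there, called, while the median of all genes shifted to 0.37, and over the alternatives its adjusted p ran from 0.0106 to 0.978. The diet by time difference in fat body was -0.33 (95% interval -0.60 to -0.06, adjusted p = 0.158), and -0.075 on division by totals. In ovaries of H females Akt rose 1.11-fold, from 12459, 11984 and 11459 to 13373, 13374 and 13089 (0.15, SE 0.04, adjusted p = 0.0132), and the M values of 12946, 12085 and 13068 against 13491, 13715 and 13478 were also separate but not called.

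Of the 4 calls kept in all alternatives tried, 3 were those of trbl, a pseudokinase that binds Akt and blocks its activation, and the other was Pi3K92E in heads of M females. In heads of M females it was at 1355, 1506 and 1642 at RNA-1 and at 2228, 2216 and 2753 at RNA-2, a 1.59-fold rise (log2 difference 0.67, SE 0.11, adjusted p = 0.00159). In H females it went from 1252, 1164 and 1435 to 2672, 2891 and 2620, a 2.13-fold rise (1.09, SE 0.11, adjusted p = 5.29e-05). In fat body of H females it rose 1.95-fold, from 1844, 2097 and 2193 to 3737, 4939 and 3400 (0.96, SE 0.14, adjusted p = 0.00195). When single libraries were left out, the differences ran from 0.57 to 0.74, from 1.02 to 1.17 and from 0.81 to 1.07.

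In fat body of M females trbl was at 2616, 2547 and 2949 at RNA-1 and at 3353, 3571 and 4285 at RNA-2. The groups did not overlap, but the difference of 0.46 had an adjusted p of 0.0610. The test of the diet by time difference gave 0.42 in heads (adjusted p = 0.245) and 0.50 in fat body (95% interval 0.05 to 0.95, adjusted p = 0.183), so a larger rise in H females was not established. In ovaries trbl lay between 3571 and 4165 in all 12 libraries, and its differences were 0.07 in M females and 0.00 in H females.

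The transcript of foxo itself was called in none of the 15 comparisons of 3 tissues. In heads it was at 4390, 5790 and 4334 in M females at RNA-1 and at 4885, 4871 and 4878 at RNA-2 (log2 difference 0.03, adjusted p = 0.864). In H females 4813, 4979 and 5312 stood against 5686, 5567 and 5343, groups that just missed overlapping, with a difference of 0.14 (adjusted p = 0.431). In fat body it was between 6056 and 7753 at all times. The ovary libraries lay between 4489 and 5157, the narrowest spread in ratio of the 3 tissues. With the length trend removed, the head difference of M females turned to -0.18 and was called, that of H females was 0.16 and was called, and the diet by time difference of 0.34 was called too. Over the alternatives the adjusted p of foxo in heads of M females ran from 0.013 to 0.899, in H females from 0.0245 to 0.658 and for diet by time from 0.0337 to 0.966.

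RNA of other tissues varied among the fat body samples. The summed level of 6 gut markers fell between time points in both diets. M females had 589716 to 838160 normalised counts and then 331559 to 450824. H females had 467632 to 1277950 and then 110742 to 373963. The sum of 10 follicle cell and eggshell markers fell too. It was 1819 to 45719 and then 129 to 767 in M, and 7184 to 26090 and then 351 to 1155 in H females. Neither sum was a covariate, and their part in the fat body results was not tested. Germline RNA also varied. The sum of 8 germline markers was 5735 to 10007 normalised counts in M females at RNA-1 against 1078 to 1452 later at RNA-2, and 2263 to 7032 and 1322 to 14824 in H females, with all 8 markers in the table. With the mean germline level as a covariate, the rise of trbl in H females was 1.04 and called, while the differences in M females were 0.43 for Pi3K92E and 0.23 for Akt and no longer passed. In M females the germline levels of the time points did not overlap. This covariate therefore cannot tell germline RNA from time there, and the lost calls do not decide between them. Over the alternatives the adjusted p of trbl in H fat body ran from 5.28e-05 to 0.02, that of Pi3K92E in M fat body from 0.00177 to 0.0565 and that of Akt from 0.00627 to 0.234.

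Larval diet was compared directly at each time point. In ovaries at RNA-1, 2 of the 9 genes were higher in H than in M females, against 25% of all genes called in either direction and 11.5% that were higher. InR was at 4595, 4791 and 4372 in M females and at 5993, 5716 and 5412 in H females, 1.24-fold higher (log2 difference 0.32, SE 0.07, adjusted p = 0.0131). The adaptor chico was at 1863, 2099 and 2006 against 2530, 2534 and 2160, 1.21-fold higher (0.27, SE 0.09, adjusted p = 0.0408). Neither gene's groups overlapped. Pi3K92E had 9758, 10592 and 9956 against 12194, 11775 and 10612 (0.19, adjusted p = 0.0547). With the length trend removed the InR difference was -0.09 and not called, and over all alternatives its adjusted p ran from 0.00771 to 0.278. The eggshell marker sum given above was also higher in every H than in every M ovary library at RNA-1, and its part in these differences was not tested.

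In heads at RNA-1 none of the 9 genes was called (3.39% of all genes were), although 4 had an unadjusted p below 0.05. InR was 0.72 higher in H females (adjusted p = 0.106), Akt 0.50 (adjusted p = 0.0964) and Pdk1 0.44 (adjusted p = 0.0718). The count turned on M replicate 2. Without it 7 of the 9 genes were called at RNA-1 and 6 for diet by time, but so were 41.9% and 32% of all genes. The differences were then 1.05 at RNA-1 and -1.34 for diet by time in InR. Over all alternatives the adjusted p of InR ran from 0.00403 to 0.993 at RNA-1 and from 0.00786 to 0.957 for diet by time. Without M replicates 1 and 3 the InR difference at RNA-1 was 0.08.

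In fat body at RNA-1 none of the 9 was called (0.986% of all genes were), and 2 had an unadjusted p below 0.05. The libraries of trbl did not overlap, with 2616, 2547 and 2949 in M against 1844, 2097 and 2193 in H females, but the difference of -0.40 had an adjusted p of 0.205. With the germline covariate it was -0.54 and passed, and over the alternatives its adjusted p ran from 0.0488 to 0.369. At RNA-2 no member was called in any tissue, with 0 of 9 also at an unadjusted p below 0.05. The background then was 0.196% of all genes in heads, 0.599% in fat body and 0.0318% in ovaries. For the diet by time term no member was called in heads (0.152% of all genes were), fat body (2.02%) or ovaries (0%), and at an unadjusted p below 0.05 there were 3, 2 and 2 members. Some members had opposite signs in the diets without passing this test, Pdk1 with 0.10 in M and -0.39 in H heads (diet by time -0.49, adjusted p = 0.227) and 0.08 and -0.13 in ovaries (-0.21, adjusted p = 0.176).

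Across the 36 libraries, after the mean of each tissue was subtracted, the gene most like InR of the 9127 genes tested in all 3 tissues was its own pathway's Pi3K92E (Pearson r = 0.92). Among genes with a name other than an ID, Brr2 and RhoGEF2 came next (both 0.91). Akt also followed InR (0.86), closely in heads (0.98), less in fat body (0.66) and with the opposite sign in ovaries (-0.54). Pi3K92E and trbl had r = 0.77, and Pdk1 and trbl -0.47. The named genes most like foxo were sba and Hex-A (both 0.66) and Dpm2 (0.63), and the r of foxo with the other 8 members lay between -0.13 and 0.39. These values describe libraries that share groups, normalisation and the length trend, and carry no test. The 3 tissues were dissected from each female, so libraries of different tissues may also share females.

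Other genes of the pathway were counted from lists, and their counts with age stand beside the same share of all genes called as before: 32% in M and 19.5% in H heads, 13.6% and 15.3% in fat body, and 20.4% and 47.8% in ovaries. Upstream of the receptor, the list of ligands and their binding proteins held 11 genes. Of these 10 passed the filter in heads, 8 in fat body and 6 in ovaries. In heads 2 rose and 2 fell in M females, and 2 rose and 0 fell in H females. In fat body 1 rose and 0 fell in M females, and none was called in H females. In ovaries 0 rose and 1 fell in M females, and 2 rose and 2 fell in H females. Outside M heads and H ovaries the share called was near or below that of all genes. Ilp2 is an insulin-like peptide made by the insulin-producing cells of the brain. In M heads it fell from 5265 to 7720 normalised counts over the RNA-1 libraries to 3734 to 4314 at RNA-2 (log2 difference -0.70, SE 0.12, adjusted p = 0.00247). Ilp5, made by the same cells, fell from 1018 to 1917 to 635 to 818 (-0.98, SE 0.20, adjusted p = 0.00488). The groups of both peptides were separate. At RNA-1 the lowest value of each, 5265 and 1018, was that of M replicate 2. Over the alternatives the Ilp2 difference ran from -0.85 to -0.40, kept in all 24. That of Ilp5 ran from -1.21 to -0.53, kept in 23 of 24. The binding proteins Sdr, a secreted decoy of the receptor, and conv, a partner in binding insulin-like peptides, rose in heads in both diets, Sdr by 0.34 in M and 0.44 in H females and conv by 0.56 and 0.81. In H females Ilp2 went from 4783 to 5430 at RNA-1 to 3871 to 4267 at RNA-2 and was not called. The list's median in heads was 0.31 in M females and -0.07 in H females.

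In fat body Ilp6, the insulin-like peptide of fat body and also a foxo target, was at 1051, 1142 and 1449 in M females at RNA-1 (lowest, median and highest) and at 3644, 4087 and 4227 at RNA-2. It rose by 1.73 on the log2 scale (SE 0.18, adjusted p = 0.000506), and the call was kept in all 25 alternatives. H females were at 1295, 1798 and 1961 and at 1941, 2133 and 2654. These groups overlapped narrowly. The diet by time difference of Ilp6 was -1.30 (SE 0.25, adjusted p = 0.0378), kept in 9 of 24 alternatives. In ovaries ImpL2, a secreted protein that binds insulin-like peptides and blocks them, fell in both diets, from 2471 to 4138 to 1196 to 1630 in M females (-1.23, SE 0.21, adjusted p = 0.00454) and from 5070 to 6663 to 1327 to 1951 in H females (-1.81, SE 0.21, adjusted p = 0.000153). It was also higher in H than in M ovaries at RNA-1 (0.84, adjusted p = 0.0189). Sdr and Ilp8 ran opposite in H ovaries, rising by 0.78 and 1.20, and had lower values in H than in M females at RNA-1, with differences of -0.62 and -1.03.

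Among 12 other regulators of the pathway, 6 rose and 1 fell in heads of M females (15.8% of all genes rose and 32% were called), and 0 rose and 1 fell in H females (19.5% were called). PRAS40, an inhibitor of TOR complex 1 that Akt phosphorylates, fell in heads (-0.29 in M, -0.36 in H females) and in fat body (-0.41, adjusted p = 0.00505, and -0.35, adjusted p = 0.00844), and rose in ovaries of M females (0.14). Over the alternatives its difference ran from -0.47 to -0.026 in M heads and from -0.43 to -0.023 in H fat body. The other counts were 1 up and 2 down in fat body of M females, 1 up and 1 down in that of H females, 3 up and 1 down in ovaries of M females and 5 up and 2 down in H females (25% of all genes rose and 22.8% fell). In H ovaries melt, whose protein binds foxo and the TSC complex, fell by 1.24 (adjusted p = 0.000684).

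The 4 subunits of TOR complex 2, which phosphorylates Akt, included 1 riser in heads of M females, mTor (0.67, SE 0.13, adjusted p = 0.00486), the kinase shared with TOR complex 1. This rise of mTor ranged from 0.071 to 0.94 over the alternatives. In fat body of M females rictor fell (-0.41, adjusted p = 0.0221). All 4 were called in ovaries of H females, where Sin1 rose by 0.44 and Lst8 by 0.12 while mTor changed by -0.31 and rictor by -0.29. Of 12 Akt substrates and genes of the TOR branch, 5 rose and 2 fell in heads of M females and none was called in H females. Thor, the translation inhibitor 4E-BP and a foxo target, fell in M heads from 23865 to 30153 to 16640 to 20186 (-0.60, SE 0.12, adjusted p = 0.00398). It was lower in H than in M heads at RNA-1 (-0.52, adjusted p = 0.0388), a call kept in 8 of 24 alternatives. Myc, a growth regulator, rose by 1.72 in M heads (SE 0.40, adjusted p = 0.0104), and by 0.71 to 2.22 over the alternatives. In fat body Thor fell in M females (-0.59, adjusted p = 0.0353), and in H females sgg, the fly GSK3, rose (0.32, adjusted p = 0.0116). In H ovaries raptor, a subunit of TOR complex 1, fell by 0.57 (SE 0.05, adjusted p = 2.1e-05), within 2 genes up and 3 down, of which eIF4E1 (-0.15) turned to 0.13 under quantile normalisation.

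Of 7 foxo partners, which modify foxo or bind it, 4 rose and 1, the kinase bsk, fell in heads of M females (-0.26, which turned to 0.011 on division by library totals). Among those that rose, nej, the acetyltransferase CBP, rose by 0.92 (SE 0.28, adjusted p = 0.0302). Its rise ranged from 0.080 to 1.31 over the alternatives, and the call was kept in 15 of 24. No partner was called in heads or fat body of H females or with age in ovaries. Sirt1, a deacetylase, fell in fat body of M females (-0.38, adjusted p = 0.0459), a call kept in 7 of 25 alternatives.

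Known targets of foxo moved in opposite directions within the same tissue while foxo was not called. The list held 9 genes, chosen from the literature on foxo in flies, and 8 of them passed the filter in ovaries. It did not separate genes that foxo activates from genes that it represses. Opposite directions and the list medians are therefore a description and not a reading of foxo activity. In heads 3 rose and 2 fell in M females, and 2 rose and 1 fell in H females. The activin-like ligand daw fell from 7407 to 9775 to 3365 to 4344 in M heads (-1.13, SE 0.12, adjusted p = 8.54e-05) and from 12200 to 13574 to 4611 to 4989 in H heads (-1.45, SE 0.12, adjusted p = 1.41e-05). The cytokine upd2, by which fat body signals the fed state to the brain, rose from 39.1 to 69.0 to 280 to 344 in M heads (2.58, SE 0.29, adjusted p = 0.000132) and from 20.1 to 33.0 to 184 to 345 in H heads (3.41, SE 0.29, adjusted p = 1.85e-05). The triglyceride lipase bmm rose by 0.45 and 0.47. For daw and upd2 no RNA-2 library reached the RNA-1 range in either diet.

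In fat body, where the targets are best known, 5 rose and 2 fell in M females and 0 rose and 3 fell in H females, of which Sesn (-0.25) turned to 0.076 when libraries were divided by their totals, with a list median of 0.57 in M and -0.14 in H females (-0.02 and 0.05 over all genes). In M females Ilp6, bmm (0.76, adjusted p = 0.0101) and the gluconeogenic enzyme Pepck1 (0.57, adjusted p = 0.0191) rose. The ligand daw fell in both diets, from 9189 to 11725 to 4233 to 5664 in M females (-1.14, SE 0.16, adjusted p = 0.00203) and from 18747 to 23632 to 4166 to 5750 in H females (-2.10, SE 0.16, adjusted p = 6.69e-05). At RNA-1 daw was higher in H than in M females in fat body (0.97, adjusted p = 0.0294) and in heads (0.62, adjusted p = 0.0249). The lipase Lip4 crossed over between the diets. It was at 9052, 9253 and 10462 in M females at RNA-1 (lowest, median and highest) and at 13623, 16115 and 20489 at RNA-2, against 12958, 16707 and 17533 and then 7672, 10073 and 11768 in H females. The time points were separate in each diet and in opposite order, and the diet by time difference was -1.47 (SE 0.27, adjusted p = 0.0292), kept in 12 of 24 alternatives. In ovaries 1 target rose and 2 fell in M females and 1 rose and 4 fell in H females, with differences of -2.53 and -2.41 for daw. Ovary daw was low, at 241 to 306 and then 20.7 to 125 in M females. In H females it was at 233 to 678 and then 60.5 to 117. The summed level of 7 fat body markers in ovaries was 206973 to 392101 and then 53629 to 110253 in M females. H ovaries had 476195 to 668061 and then 68606 to 109421. The part of this shift in the ovary results was not tested.

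**Figure D5:**
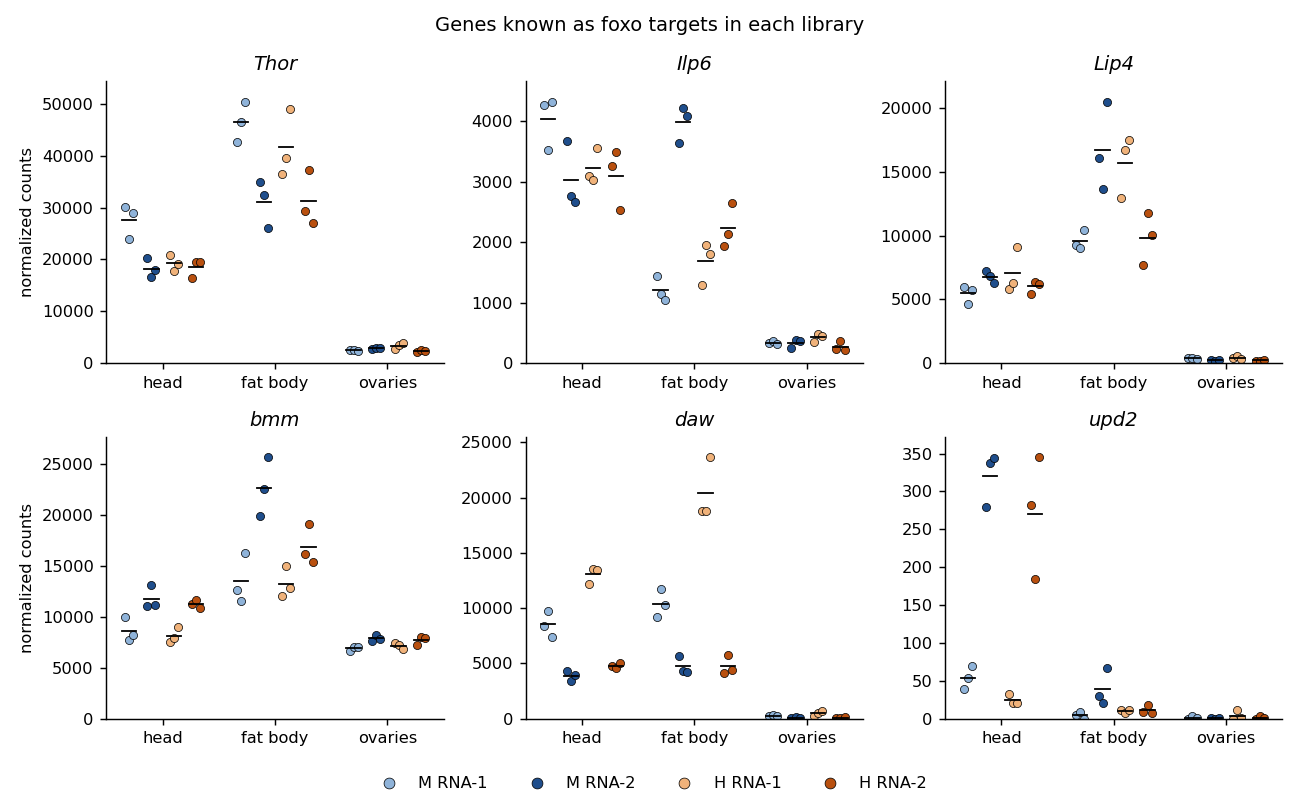
Normalised counts of 6 foxo targets (Thor, Ilp6, Lip4, bmm, daw and upd2) in every library, by tissue, with 1 point per library, 3 libraries per group of diet and time point and a bar at the group mean. In fat body Lip4 is higher at RNA-2 in M females and lower in H females, daw is lower at RNA-2 in both and starts higher in H females, and upd2 reaches 184 to 345 in heads at RNA-2.

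Genes of neighbouring pathways were counted in the same way. Of 14 other phosphoinositide enzymes, 4 rose and 3 fell in heads of M females (32% of all genes were called) and 3 rose and 3 fell in H females (19.5%), Pi3K59F, the kinase of another phosphoinositide class, being among the M genes that fell (-0.24, which turned to 0.028 when libraries were divided by their totals). In both diets sktl, which makes the substrate of the phosphoinositide 3-kinase, rose in heads (0.48 and 0.33) and the phosphatase Sac1 fell (-0.46 and -0.35). In fat body 1 rose in M females, and 1 rose and 1 fell in H females, the latter being PIP4K (-0.24, which turned to 0.083 on division by totals). In ovaries 4 rose and none fell in M females (20.4% of all genes were called), and 4 rose and 1 fell in H females (47.8%). Of 11 genes of the Ras-MAPK branch that the receptor also feeds, 5 rose in heads of M females (15.8% of all genes rose) and 2 in H females (11%), none falling, with the adaptor Shc in both (0.41, adjusted p = 0.00197, and 0.56, adjusted p = 0.000216). In ovaries of H females 6 rose and 1 fell, where 25% of all genes rose and 22.8% fell, among them the kinase Raf (0.28, adjusted p = 0.00193), and Raf was lower in H than in M ovaries at RNA-1 (-0.24, adjusted p = 0.0143).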

How the data were processed

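Per the labels, each library was a stranded mRNA library from a pool of 11 or 12 females. The authors estimated transcript counts with kallisto 0.46.1 and deposited, for each tissue, counts per gene normalised with DESeq2 1.28.1 in R 4.0.1, which are a signal on the scale of counts and not whole reads. Their comparison columns (fold changes, p-values and calls between RNA-2 and RNA-1) were not used. The build named in the submitters' processing notes, BDGP6, supplied symbols, coordinates and transcript lengths, and all 9 symbols were matched. Values were tested as log2(value + 1) with limma 3.58.1 (R 4.3.3, statmod 1.5.0), with 4 groups of 3 libraries per tissue, a variance trend and robust variances, on genes with at least 10 normalised counts in at least 3 of 12 libraries, with Benjamini-Hochberg adjustment over all of them and a threshold of 0.05. The script was tested on simulated data. The depth of each library is unknown. No count model could be used, since whole reads could not be recovered from the deposited values.

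The members and gene lists were chosen with earlier results of these data known. A gene of the list of other regulators is not reported here and was left out of its counts. The text names all 9 members, from each list at most the 4 called genes of smallest p in a comparison, and the 3 genes most like InR and foxo by Pearson correlation of tissue-centred levels. Genes with no name other than an ID were left out of that ranking. Lip4 values within each diet were added after they were seen. Alternatives were pseudocounts of 0.5 and 5, division by library totals, quantile normalisation, a minimum of 50 and none, fits to 6 libraries alone, no variance trend, a replicate block, removal of each library's lowess trend on transcript length (span 0.4), a germline covariate in fat body, a threshold of 0.01, each library left out in turn, and doubted libraries left out together (head M RNA-1 replicates 1 and 3; fat body replicate 1 of M at RNA-1, and replicates 1 and 3 of H at RNA-2). No DNA or protein sequences were used here.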

Additional observations from a re-analysis of the deposited data

Results flagged for a closer look

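Some genes had differences of opposite sign in different tissues under the same comparison, every RNA-2 library lying on 1 side of the RNA-1 libraries in one tissue and on the other side in another. The difference between tissues was not tested, since the tissues were normalised and fitted separately. In M females Pdk1 had a log2 difference of -0.13 in fat body and 0.080 in ovaries, neither of which passed its own test. PRAS40 had -0.41 in fat body, -0.29 in heads and 0.14 in ovaries of M females, and each passed. These calls were kept in 24 of 25, 18 of 24 and 16 of 23 alternatives. The head difference ran from -0.47 to -0.026 over them. In H females Lnk had -0.21 in heads and 0.14 in ovaries, and neither passed.

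In fat body the change from RNA-1 to RNA-2 differed between the diets in a test of the difference itself for 2 foxo targets. The diet by time value was -1.47 for Lip4 (limma, adjusted p = 0.0292) and -1.30 for Ilp6 (adjusted p = 0.0378). No group held enough libraries for a test of single outlying samples.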

How the results depend on the processing

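Of the 20 calls among 135 member comparisons, 4 held in all alternatives (trbl in heads of both diets and in fat body of H females, Pi3K92E in heads of M females), and 16 were lost in at least 1. Of the comparisons not called, 36 were called in at least 1. The counts of members called, with 6 in M heads, 3 in H heads, 2 in fat body of each diet, 2 in M ovaries, 3 in H ovaries and 2 for H against M in ovaries at RNA-1, moved as follows. Removal of the length trend gave 6 in H heads, 1 for diet by time in heads, 4 in M fat body, 0 in M ovaries and 1 for H against M in ovaries. Division by library totals gave 4 in M and 7 in H fat body and 1 for diet by time there, while the median of all genes shifted to 0.29 in M heads, 0.16 in H heads, 0.37 in H fat body and 0.13 in H ovaries. With doubted libraries left out, M heads had 2, M fat body 1 and H fat body 1. The germline covariate gave 0 in M fat body and 1 for H against M in fat body at RNA-1. Fits to 6 libraries alone gave 1 in M fat body, 1 in M ovaries and 1 for H against M in ovaries. M ovaries had 0 with no variance trend, with quantile normalisation or without the filter, and H against M in ovaries had 1 with no variance trend. At a threshold of 0.01 the counts were 1 in H heads, 1 in each fat body comparison and 0 in both ovary age comparisons and H against M. With single libraries left out, the counts ran from 4 to 8 in M heads, 1 to 4 in H heads, 0 to 6 for diet by time and 0 to 7 for H against M at RNA-1 in heads, 1 to 4 in M and 1 to 3 in H fat body, 0 to 1 in M ovaries, 1 to 4 in H ovaries and 0 to 3 for H against M at RNA-1 there. The highest head counts of diet came without M RNA-1 replicate 2, and the count in H heads was 1 without RNA-1 replicate 2 or RNA-2 replicates 3 or 4. Among values past the threshold in the comparison as reported or in the alternative, the signs that turned were those of foxo in M heads (-0.18), InR in H ovaries (0.15) and InR in H against M ovaries at RNA-1 (-0.087) with the length trend removed, of bsk (0.011) and Pi3K59F (0.028) in M heads and Sesn (0.076) and PIP4K (0.083) in H fat body on division by totals, and of eIF4E1 in H ovaries (0.13) under quantile normalisation. The cause was not tested. Of the member comparisons not called, 60 changed sign in at least 1 alternative.

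The replicate numbers gave no clear pairing of the samples, though with 3 libraries per group this check cannot exclude one. Same-numbered libraries of the 2 time points correlated in their deviations with r from -0.26 to 0.24 over 15 pairs, 3 of them over 0.1, and 8 of the 15 were the best match of their RNA-1 library. A replicate block gave 1 call in H heads, 1 in M fat body and 1 in H fat body.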
